A study of Mus musculus with 10 samples.

Results

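The levels of 36 genes of the cell cycle and of DNA replication were followed in the livers of male mice of C57BL/6J, a common inbred strain. They were taken by name from a list of 36 genes, which was chosen with earlier results of these data known. They comprise 21 genes of mitosis, 10 genes of S phase, and 5 G1 cyclins and inhibitors of cyclin-dependent kinases. The ethanol mice drank ethanol in their water during the last 3 months of a 60% high-fat diet that lasted 4 months, with a daily intake of 5 g/kg for a week and of 10 g/kg from then on. The control mice ate the same diet for 4 months with no ethanol. Every mouse was thus fat-fed, and no lean group and no group given ethanol on a normal diet was analysed here. Mice were bought at 7 weeks of age and kept for 1 week on standard chow before the diet began. Bulk RNA of a piece of liver from 5 mice of each group, chosen at random from 10 per group, was hybridised to 1-colour Agilent arrays, 1 mouse to an array.

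The array named 22911 genes, of which 15089 were tested, and 31 of the 36 genes were among these. The 36 genes had 52 probes, of which 41 were kept. A gene was tested where a probe stood well above its background on 4 or more of a group's 5 arrays. The arrays carried liver RNA by the level of the albumin gene Alb, whose log2 signal lay between 10.09 and 10.34 in ethanol livers, against 10.01 to 10.44 in control livers. On the ethanol arrays 57.2% to 58.8% of spots were well above background, against 55.4% to 59.1% on the control arrays, and 0 spots were saturated. The arrays lay on 3 slides, and neither the slide nor the place on it was balanced between groups. Slide 2 held control replicates 1 and 3 alone, and slide 3 held every ethanol replicate except 4 with control replicate 2. The scan differed between slides and not within them. Slide column 1 held ethanol replicates 2 and 3 alone and slide column 4 held control replicates 1, 4 and 5 alone, while column 2 held ethanol replicate 5 and control replicate 2, and column 3 held ethanol replicates 1 and 4 and control replicate 3. Only columns 2 and 3 held both groups. Values that take the column into account are given for each class and list of pathway genes and for some single genes.

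A cell that leaves rest passes G1, in which D-type and then E-type cyclins with their kinases release the E2F transcription factors. E2F switches on the genes of S phase, among them the MCM helicase that opens the DNA and the enzymes that make deoxynucleotides. Later, the MuvB complex with B-MYB and FOXM1 switches on the mitotic genes, many of which hold CHR and CCAAT elements in their promoters. The inhibitors p21 and p27 hold the kinases back, and p21 is a direct target of p53. Most hepatocytes of an adult liver are at rest and many are polyploid, and dividing cells can also be macrophages, stellate cells or other cells of the tissue. In bulk liver RNA, fewer cells in cycle and less RNA per cycling cell cannot be told apart.

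No gene of the 31 passed an adjusted p of 0.05 in limma, where 3 of all 15089 genes, 0.0199%, did. The smallest adjusted p was 0.321. At an unadjusted p under 0.05 the ethanol mean lay below the control mean for 4 of the 31 (Cdk1, Ccnb2, Foxm1 and Cdca3) and above it for 1 (Rrm2), beside 5.22% of all genes below and 8.11% above. In none of the 31 did the ethanol and control mice separate without overlap, which 3.05% of all genes did. For mitosis genes the median log2 fold change, ethanol over control, was -0.73, with 16 of 17 below 0. Across all genes 43.2% lay below 0 and the median was 0.03. For S phase genes the median was 0.09, with 7 of 10 above 0, and for the 4 tested G1 cyclins and inhibitors it was -0.13, with 4 of 4 below 0. Of the mitosis genes, Cdk1, Foxm1 and Nusap1 were well above background on 2 of the 5 ethanol arrays and were tested because of the control arrays. Over the 14 others, whose probes were above background on all 10 arrays, the median was -0.70 with 13 below 0. Of all 28 genes above background on all 10 arrays, 2 lay below 0 (Ccnb2 and Cdca3) and 1 above at an unadjusted p under 0.05 in limma.

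**Figure D1:**
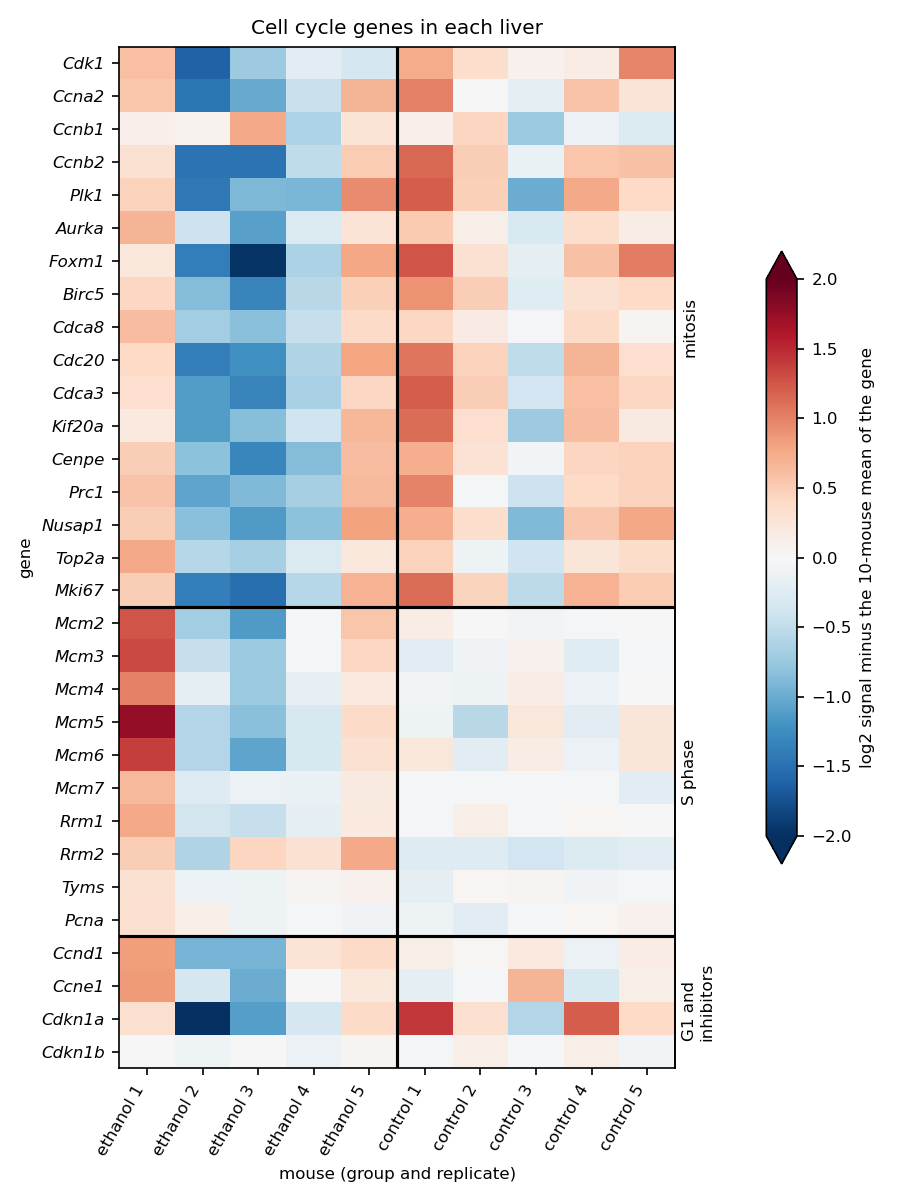
Level of each of the 31 tested genes in each liver, as log2 signal minus the mean of that gene over the 10 mice (red above, blue below, colours capped at 2 on either side). Rows are genes by class, the 5 ethanol mice stand left of the line and the 5 control mice right of it. Ethanol replicates 2 and 3 are blue for most mitosis genes, and ethanol replicate 1 is red for the Mcm genes, while the S phase genes of control mice stay near 0.

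Values of single genes are log2 signals relative to the 75th percentile of the array, for replicates 1 to 5 in that order, and fold changes are log2 of ethanol over control.

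Cdk1, the cyclin-dependent kinase of mitotic entry, was at -3.72, -5.94, -5.04, -4.53 and -4.66 in ethanol livers, against -3.57, -3.97, -4.24, -4.17 and -3.35 in control livers. Ethanol replicate 2 was the lowest and control replicate 5 the highest, and ethanol replicate 1 lay inside the control range. The log2 fold change was -0.92 ± 0.36 (SE, adjusted p = 0.325), with a 95% interval of -1.71 to -0.13. Ccnb2, a B-type cyclin that activates Cdk1, was at -0.26, -2.05, -2.04, -1.08 and -0.06 in ethanol livers, against 0.57, -0.07, -0.71, -0.01 and 0.02 in control livers. Ethanol replicates 2 and 3 lay more than a log2 unit below every control mouse, and ethanol replicates 1 and 5 lay among the controls. Its log2 fold change was -1.06 ± 0.42 (SE, adjusted p = 0.330), or 0.480-fold, with a 95% interval of -1.98 to -0.13. Ccna2, the A-type cyclin of S phase and G2, was at -1.70, -3.69, -3.27, -2.69 and -1.57 in ethanol livers, against -1.24, -2.24, -2.44, -1.68 and -1.99 in control livers. It showed the same pair of low ethanol mice and gave a log2 fold change of -0.67 ± 0.42 (SE, adjusted p = 0.488). A second probe of Ccna2 gave -0.68. Ccnb1, the other B-type cyclin, was at -2.28, -2.32, -1.62, -2.995 and -2.11 in ethanol livers, against -2.28, -1.96, -3.13, -2.50 and -2.66 in control livers. Its highest value was in ethanol replicate 3, a mouse in which the other cyclins here were low, and its log2 fold change was 0.24 ± 0.27 (SE, adjusted p = 0.704). Ccnb1 was the only mitosis gene above 0, and its second kept probe, dimmer and above background on 2 ethanol and 4 control arrays, gave -0.66.

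The promoters of Cdk1 and Ccnb2 are shown because these mitosis genes had the smallest p among those with a promoter entry. The sequences are the 250 bases before the gene's start in RefSeq for GRCm38.p6, both on the minus strand, at chr10:69352913-69353162 for Cdk1 and chr9:70421555-70421804 for Ccnb2, with matches on either strand in capitals. A CHR match was the word TTTGAA or its relative TTTAAA in full, and a CCAAT match those letters alone. An E2F match was the word TTCCCGC with its relatives TTGGCGC and further TTCGCGC and lastly TTGCCGC, each in full.
Cdk1: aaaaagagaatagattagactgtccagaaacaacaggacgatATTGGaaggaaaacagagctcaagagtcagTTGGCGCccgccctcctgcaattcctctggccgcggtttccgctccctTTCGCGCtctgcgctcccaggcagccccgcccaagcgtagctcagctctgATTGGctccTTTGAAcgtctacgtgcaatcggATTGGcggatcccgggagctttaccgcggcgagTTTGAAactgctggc
Ccnb2: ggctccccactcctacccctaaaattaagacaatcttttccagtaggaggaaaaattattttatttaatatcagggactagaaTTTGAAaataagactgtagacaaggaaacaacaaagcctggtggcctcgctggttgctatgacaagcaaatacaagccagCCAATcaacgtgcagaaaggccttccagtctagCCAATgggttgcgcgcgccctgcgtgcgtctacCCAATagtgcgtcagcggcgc
Cdk1 held 2 CHR, 3 CCAAT and 2 E2F matches, and Ccnb2 held 3 CCAAT and 2 CHR matches, of which the second CHR match began at base 5 after the start and is not in the printed stretch. Over the 300-base promoter window, which adds 50 bases after the start, 15 of 17 mitosis genes with an entry held a CHR match, against 27.6% of all 32851 promoters in the table. A CCAAT match was in 15 of 17, against 37.4%, and both were in 14 of 17, against 10.73%. E2F matches were in 3 of 17 mitosis genes, against 9.57% of all promoters. The 17 include Bub1, Bub1b and Kif11, which were too dim to test, and leave out Ccna2, Foxm1, Aurkb and Kif20a. A match describes letters only, and a CCAAT match shared letters with an E2F match in Ccnb1 and with a CHR match in Cdca8.

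The mitotic kinases and their transcription factor gave a similar picture among mice. Plk1, a kinase of spindle assembly and mitotic exit, was at -1.57, -3.45, -2.93, -2.94 and -1.09 in ethanol livers, against -0.82, -1.55, -3.02, -1.27 and -1.62 in control livers, so that control replicate 3 lay below ethanol replicates 3 and 4. Its log2 fold change was -0.74 ± 0.52 (SE, adjusted p = 0.524). Aurka, the kinase of the spindle poles, was at -0.51, -1.59, -2.26, -1.47 and -0.90 in ethanol livers, against -0.65, -1.07, -1.49, -0.82 and -1.03 in control livers, with ethanol replicate 1 the highest of all 10 mice. Its log2 fold change was -0.33 ± 0.30 (SE, adjusted p = 0.625). Foxm1, the transcription factor of the mitotic genes, was at -3.88, -5.49, -6.07, -4.75 and -3.33 in ethanol livers, against -2.85, -3.80, -4.30, -3.52 and -3.09 in control livers. It had the lowest log2 fold change of the 31 genes, -1.19 ± 0.50 (SE, adjusted p = 0.350), on a probe above background on 2 of 5 ethanol arrays. This rank depended on the processing of dim signals. With normexp background correction the log2 fold change was -0.25 for Foxm1 and -0.20 for Cdk1, and the lowest of the 31 was Cdkn1a at -0.90. Aurkb, the kinase of the chromosomal passenger complex, was not tested, since its brighter probe was above background on 3 ethanol and 2 control arrays, with means of -4.59 in ethanol and -4.64 in control livers.

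Among partners of Aurora B in the chromosomal passenger complex, Birc5 (survivin) was at 0.83, -0.45, -0.90, -0.14 and 0.89 in ethanol livers, against 1.31, 0.90, 0.18, 0.71 and 0.80 in control livers. Ethanol replicates 2, 3 and 4 lay below every control mouse, ethanol replicates 1 and 5 did not, and the log2 fold change was -0.73 ± 0.35 (SE, adjusted p = 0.391). A second Birc5 probe gave -0.72. Cdca8 (borealin) was at -0.37, -1.68, -1.81, -1.45 and -0.61 in ethanol livers, against -0.57, -0.82, -1.01, -0.60 and -0.93 in control livers, again with ethanol replicates 2, 3 and 4 below every control mouse and the other ethanol mice within or above the control range. Its log2 fold change was -0.40 ± 0.27 (SE, adjusted p = 0.518), and its second probe gave -0.62.

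Of the spindle checkpoint and mitotic exit genes, Cdc20, which activates the anaphase-promoting complex, was at -0.43, -2.21, -2.04, -1.42 and -0.04 in ethanol livers, against 0.24, -0.36, -1.33, -0.14 and -0.49 in control livers. Control replicate 3 lay near ethanol replicate 4, and the log2 fold change was -0.81 ± 0.45 (SE, adjusted p = 0.438), while a second Cdc20 probe above background on all 10 arrays gave -0.18. Cdca3, a substrate adaptor that helps trigger mitotic entry, was at -0.64, -2.08, -2.29, -1.61 and -0.55 in ethanol livers, against 0.25, -0.47, -1.35, -0.36 and -0.55 in control livers. Ethanol replicates 2, 3 and 4 lay below all controls, and the log2 fold change was -0.94 ± 0.39 (SE, adjusted p = 0.349). Bub1b, the checkpoint protein BUBR1, was too dim to test, with 0 of 5 ethanol arrays and 3 of 5 control arrays above background. Bub1, a related checkpoint kinase, was above background on 1 array of each group.

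The spindle motors and microtubule binders repeated the low ethanol mice. Kif20a, a kinesin of the central spindle, was at -2.09, -3.40, -3.14, -2.68 and -1.61 in ethanol livers, against -1.16, -1.94, -2.999, -1.67 and -2.10 in control livers, with a log2 fold change of -0.61 ± 0.40 (SE, adjusted p = 0.501). Cenpe, the kinesin of the kinetochore, was at -1.79, -3.11, -3.59, -3.15 and -1.66 in ethanol livers, against -1.56, -1.99, -2.34, -1.85 and -1.82 in control livers, with a log2 fold change of -0.75 ± 0.37 (SE, adjusted p = 0.397). For Cenpe 3 of the 5 ethanol mice lay below all controls, and for Kif20a control replicate 3 lay between ethanol replicates 3 and 4. Prc1, which bundles microtubules at the midzone, was at -1.45, -3.07, -2.90, -2.67 and -1.36 in ethanol livers, against -1.02, -2.04, -2.43, -1.61 and -1.55 in control livers, with a log2 fold change of -0.56 ± 0.39 (SE, adjusted p = 0.522). Nusap1, a spindle-associated protein, was at -3.37, -4.70, -4.998, -4.69 and -3.06 in ethanol livers, against -3.14, -3.50, -4.74, -3.31 and -3.09 in control livers, with a log2 fold change of -0.61 ± 0.44 (SE, adjusted p = 0.542), and control replicate 3 was as low as ethanol replicates 2 and 4. Kif11, the motor that separates the spindle poles, was above background on 0 of the 10 arrays.

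Top2a, the topoisomerase that untangles chromosomes, was at -2.04, -3.37, -3.46, -3.09 and -2.59 in ethanol livers, against -2.32, -2.89, -3.19, -2.55 and -2.43 in control livers. Ethanol replicate 1 was the highest of the 10, and the log2 fold change was -0.23 ± 0.28 (SE, adjusted p = 0.729), with -0.56 from a dimmer probe. Mki67, the coat protein of mitotic chromosomes used as a mark of cycling cells, was at -0.45, -2.32, -2.45, -1.52 and -0.25 in ethanol livers, against 0.17, -0.51, -1.48, -0.25 and -0.44 in control livers. Its lowest values were again in ethanol replicates 2 and 3, ethanol replicate 5 lay within the control range, and its log2 fold change was -0.90 ± 0.47 (SE, adjusted p = 0.421).

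Averaged over the 17 mitosis genes, the mean log2 deviation from the 10-mouse mean was 0.45, -1.03, -1.03, -0.56 and 0.52 in ethanol replicates 1 to 5, against 0.87, 0.30, -0.39, 0.46 and 0.42 in control replicates 1 to 5. In this mean 3 of the 5 ethanol mice were the lowest of the 10, and the other two lay among the controls. Ethanol replicates 2, 3 and 4 were among the 3 lowest mice for 16, 15 and 12 of the 17 genes. Control replicate 1 was the highest mouse for 11 of the 17. The group means were -0.33 ± 0.77 in ethanol and 0.33 ± 0.46 in control livers (SD, n = 5 each). These 17 genes include Cdk1, Foxm1 and Nusap1, which were tested because of the control arrays. The means and counts per mouse were not made without them.

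**Figure D2:**
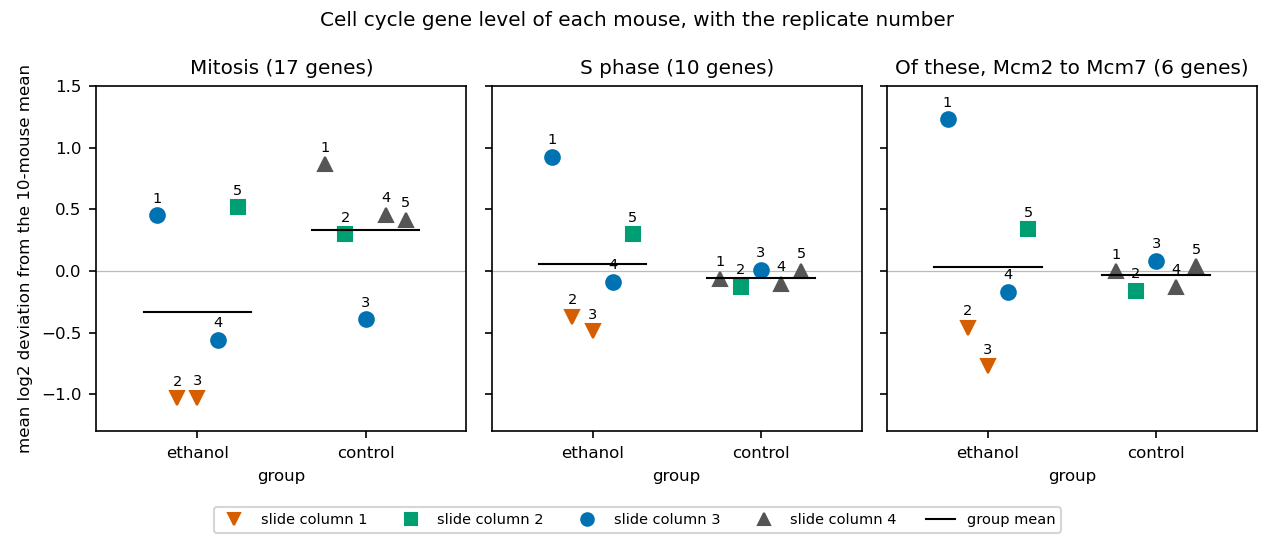
Mean log2 deviation from the 10-mouse mean for the mitosis genes, the S phase genes and the Mcm genes among them. Each point is a mouse with its replicate number, ethanol left of control, and its marker gives the column of the array on its slide. For mitosis, both mice of slide column 1 sit at -1.03, ethanol replicate 5 lies above control replicate 2 in column 2, and control replicate 3 lies between the 2 ethanol mice of column 3.

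The position on the slide moved with this difference. With the slide column as a linear covariate the median log2 fold change of the mitosis genes was -0.15 with 13 of 17 below 0, and with the column as a factor it was 0.36 with 1 of 17 below 0. Without the arrays of slide column 1 the median was -0.21 with 14 of 17 below 0. Within column 2, 1 ethanol mouse against 1 control mouse, it was 0.30 with 4 of 17 below 0, and within column 3, 2 ethanol mice against 1 control mouse, it was 0.37 with 2 of 17 below 0. With the slide as a fixed block it was -0.85, within slide 1 it was -1.09, and within slide 3 it was -0.62. It was -0.48 without ethanol replicate 2 and -0.32 with normexp background correction. Slide 1 held ethanol replicate 4 and control replicates 4 and 5, and slide 3 held ethanol replicates 1, 2, 3 and 5 and control replicate 2. Slide 2 held control replicates 1 and 3 alone. The fit with the slide as a fixed block thus takes its fold changes from slides 1 and 3 alone. For Cdk1 the log2 fold change was -0.27 with the linear covariate, -0.23 with the factor, -0.44 without column 1, -0.69 within column 2 and 0.11 within column 3. For Ccnb2 it was -0.38 with the linear covariate and -0.43 without column 1, but 0.027 with the factor, 0.015 within column 2 and 0.036 within column 3. Ethanol and slide column cannot be told apart for the arrays of columns 1 and 4, which hold 1 group each. The fit with the column as a factor thus takes its fold changes from the arrays of columns 2 and 3 alone. It pools the values within these columns and is not a separate result. The control mice there, replicates 2 and 3, were the lowest control mice for the mitosis genes, at 0.30 and -0.39.

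**Figure D3:**
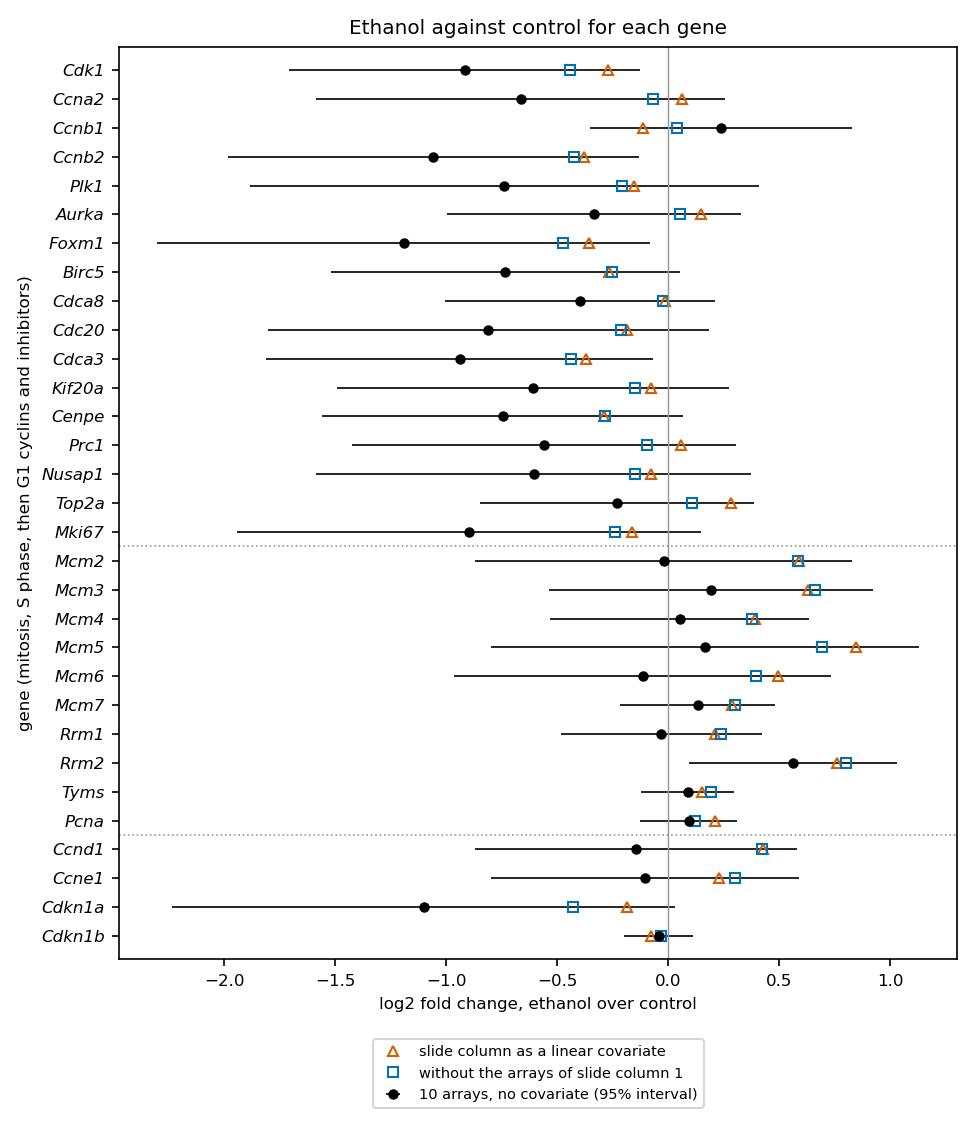
Log2 fold change of ethanol over control for each tested gene. Black points with bars are limma estimates from 10 arrays with 95% intervals, orange triangles are estimates with the slide column as a linear covariate, and blue squares leave out the 2 arrays of slide column 1. For mitosis genes both coloured sets lie nearer 0 than the black points, except at Top2a for the triangles, and for S phase genes they lie further right.

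Rrm2 had the smallest p of the S phase genes. It encodes the small subunit of ribonucleotide reductase, which makes deoxynucleotides for replication, and it was at 1.02, -0.07, 0.95, 0.83 and 1.28 in ethanol livers, against 0.26, 0.26, 0.13, 0.25 and 0.29 in control livers. Ethanol replicate 2 lay below every control mouse and the other 4 ethanol mice lay above all of them. The log2 fold change was 0.56 ± 0.21 (SE, adjusted p = 0.321), or 1.48-fold, with a 95% interval of 0.09 to 1.03. It was 0.76 with the slide column as a linear covariate, 0.80 without column 1, 1.02 within column 2 and 0.79 within column 3. Rrm1, the large subunit of the same enzyme, was at 0.62, -0.51, -0.60, -0.33 and 0.05 in ethanol livers, against -0.18, -0.01, -0.18, -0.10 and -0.14 in control livers. Ethanol replicate 1 was the highest mouse and ethanol replicates 2, 3 and 4 the lowest, and the log2 fold change was -0.03 ± 0.20 (SE, adjusted p = 0.957). Tyms, which makes thymidylate, was at 1.62, 1.20, 1.22, 1.38 and 1.41 in ethanol livers, against 1.12, 1.36, 1.37, 1.26 and 1.29 in control livers, with a log2 fold change of 0.09 ± 0.09 (SE, adjusted p = 0.690). Pcna, the sliding clamp of the replication fork, was at 2.57, 2.36, 2.14, 2.23 and 2.18 in ethanol livers, against 2.15, 2.04, 2.21, 2.29 and 2.33 in control livers, with a log2 fold change of 0.09 ± 0.10 (SE, adjusted p = 0.686). For Tyms and Pcna ethanol replicate 1 was the highest mouse, and the 95% intervals reached from -0.12 to 0.30 and from -0.13 to 0.31.

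The 6 Mcm genes encode the ring of the replicative helicase, which is loaded on DNA in G1 and unwinds it in S phase. Mcm2 was at 0.22, -1.73, -2.18, -1.08 and -0.49 in ethanol livers, against -0.89, -1.03, -1.10, -1.08 and -1.05 in control livers. The control mice spanned a narrow band, while ethanol replicate 1 lay above it, ethanol replicate 5 too, and ethanol replicates 2 and 3 lay below it. Mcm3 was at 1.84, 0.06, -0.23, 0.48 and 0.93 in ethanol livers, against 0.30, 0.46, 0.60, 0.27 and 0.49 in control livers, and Mcm4 at 1.45, 0.26, -0.31, 0.28 and 0.64 in ethanol livers, against 0.38, 0.34, 0.59, 0.32 and 0.45 in control livers. Both placed ethanol replicate 1 at the top and ethanol replicate 3 at the bottom of the 10 mice. Mcm5 was at 0.16, -2.18, -2.44, -1.92 and -1.22 in ethanol livers, against -1.70, -2.16, -1.38, -1.83 and -1.37 in control livers, and Mcm6 at 2.52, 0.56, 0.09, 0.81 and 1.44 in ethanol livers, against 1.37, 0.93, 1.29, 1.02 and 1.38 in control livers. Ethanol replicate 1 was again the highest mouse, by more than a log2 unit. Mcm7 was at 1.96, 1.05, 1.20, 1.18 and 1.49 in ethanol livers, against 1.29, 1.27, 1.28, 1.29 and 1.09 in control livers, where ethanol replicate 1 was the highest and ethanol replicate 2 the lowest. The log2 fold changes were -0.02 ± 0.38 (SE) for Mcm2, 0.19 ± 0.33 (SE) for Mcm3, 0.05 ± 0.26 (SE) for Mcm4, 0.16 ± 0.43 (SE) for Mcm5, -0.11 ± 0.38 (SE) for Mcm6 and 0.13 ± 0.16 (SE) for Mcm7, with adjusted p between 0.725 and 0.985. These intervals are wide: that of Mcm5 reached from -0.80 to 1.13 and that of Mcm7 from -0.22 to 0.48.

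The promoters of Rrm2 and Pcna, the S phase genes of smallest p, and of Mcm5, added after its values were seen as the Mcm gene with the largest SD among ethanol mice, are printed from the same source. They lie at chr12:24708004-24708253 on the plus strand, chr2:132253181-132253430 on the minus strand and chr8:75109259-75109508 on the plus strand of GRCm38.p6, again with CHR, CCAAT and E2F matches in capitals.
Rrm2: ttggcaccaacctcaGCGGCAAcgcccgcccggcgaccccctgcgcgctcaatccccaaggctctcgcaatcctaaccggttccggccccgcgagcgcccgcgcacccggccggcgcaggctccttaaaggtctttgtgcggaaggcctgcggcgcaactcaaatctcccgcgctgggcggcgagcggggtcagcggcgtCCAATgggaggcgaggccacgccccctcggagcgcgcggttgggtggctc
Pcna: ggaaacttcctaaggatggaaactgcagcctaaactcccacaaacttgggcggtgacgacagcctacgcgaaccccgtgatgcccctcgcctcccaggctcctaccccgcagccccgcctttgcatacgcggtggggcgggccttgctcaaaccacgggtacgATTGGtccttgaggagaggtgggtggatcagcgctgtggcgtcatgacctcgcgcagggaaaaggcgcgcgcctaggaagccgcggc
Mcm5: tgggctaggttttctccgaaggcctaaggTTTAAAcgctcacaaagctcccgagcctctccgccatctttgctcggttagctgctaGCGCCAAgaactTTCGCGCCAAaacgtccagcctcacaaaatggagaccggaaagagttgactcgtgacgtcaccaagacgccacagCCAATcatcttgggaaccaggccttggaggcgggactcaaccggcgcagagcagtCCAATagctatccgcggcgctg
Rrm2 held 1 E2F and 1 CCAAT match in this stretch and a CHR match at its start, Pcna held 1 CCAAT match, and Mcm5 held 3 E2F matches, 2 of which share letters, with 1 CHR match and 2 CCAAT matches in the printed stretch. An E2F match was in 6 of the 9 S phase genes with an entry, against 9.57% of all promoters, and in 4 of the 5 Mcm genes with an entry, Mcm3, Mcm5, Mcm6 and Mcm7, in each of which E2F matches share letters. A CHR match was in 3 of the 9 and a CCAAT match in 8 of the 9, against 27.6% and 37.4% of all promoters. Mcm4 was the S phase gene not in the table.

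Over the 10 S phase genes the mean deviation was 0.93, -0.37, -0.49, -0.09 and 0.30 in ethanol replicates 1 to 5, against -0.06, -0.13, 0.01, -0.10 and 0.0035 in control replicates 1 to 5. The group means were 0.06 ± 0.57 in ethanol and -0.06 ± 0.06 in control livers (SD, n = 5 each), so that the means differed by less than the spread between ethanol mice. Ethanol replicate 1 was the highest mouse for 9 of the 10 genes and ethanol replicate 3 the lowest for 6. For the 6 Mcm genes alone the ethanol values were 1.23, -0.46, -0.77, -0.17 and 0.34, and the control values lay between -0.16 and 0.08. In control mice the mitosis genes covered -0.39 to 0.87 while the S phase genes covered -0.13 to 0.01, so control replicate 1, the highest for mitosis, was not set apart for S phase.

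The spread itself was compared after the values were seen, as the SD over ethanol mice divided by the SD over control mice, with no test. It was at least 3 for 8 of the 10 S phase genes, beside 5.71% of all 15089 genes, and its median was 5.23, beside 1.16 over all genes. All 6 Mcm genes passed 3, with ratios between 3.16 for Mcm5 and 11.6 for Mcm2. For Mcm2 the SD was 0.96 in ethanol and 0.08 in control livers, and for Rrm2 it was 0.52 in ethanol and 0.06 in control livers. Of the mitosis genes 2 of 17 passed 3, Cdca8 and Cenpe, with a median of 1.69. The median SD of the mitosis genes was 0.82 in ethanol and 0.47 in control livers, and that of the S phase genes 0.58 in ethanol and 0.10 in control livers. Without ethanol replicate 1 the S phase count was 5 of 10, with a median ratio of 3.16, beside 5.61% of all genes. Without the arrays of slide column 1 the count was 8 of 10, beside 3.44% of all genes. Without these and ethanol replicate 1 it was 3 of 10, beside 4.79% of all genes. The ethanol SDs then rest on ethanol replicates 4 and 5 alone.

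**Figure D4:**
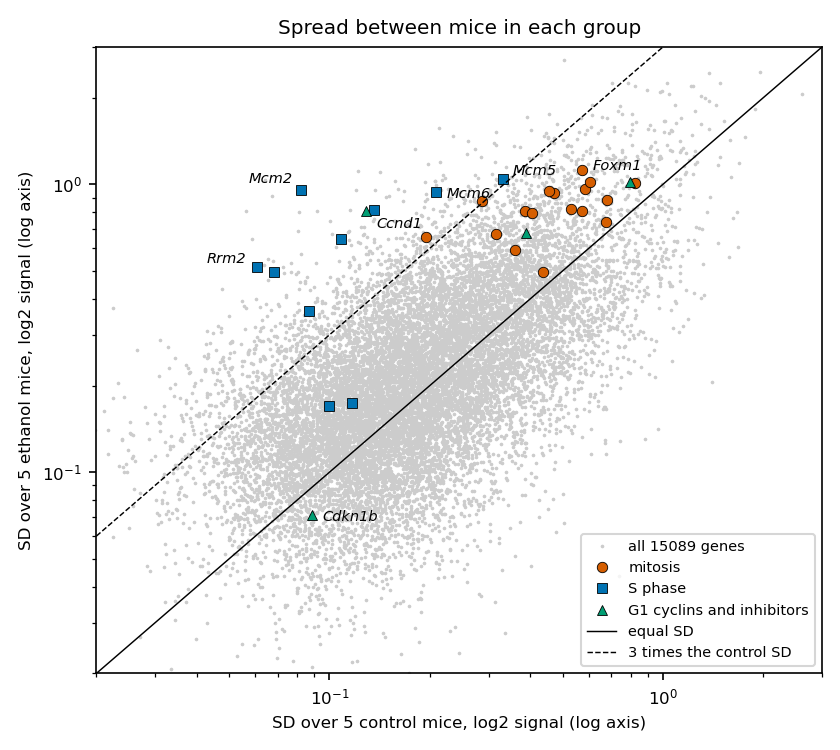
SD over the 5 ethanol mice (vertical) against SD over the 5 control mice (horizontal), both of log2 signal on log axes. Grey dots are all 15089 genes and coloured points the 31 cell cycle genes by class, with a solid line at equal SD and a dashed line at 3 times the control SD. The dashed line has 8 of the 10 S phase genes above it, and the mitosis genes lie further right with larger control SDs.

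The median of the S phase genes also lay higher where the slide column was taken into account, and so further from 0. The median log2 fold change of S phase genes was 0.44 with the column as a linear covariate, 0.36 with it as a factor and 0.38 without the arrays of column 1, each with 10 of 10 genes above 0. It was 0.39 within column 2 and 0.35 within column 3. Without ethanol replicate 1 it was -0.15, with 3 of 10 genes above 0, and without ethanol replicate 3 it was 0.21, with 10 of 10 above 0. No S phase gene passed an adjusted p of 0.05 in any of these fits.

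Among the G1 cyclins, Ccnd1 (cyclin D1), which links growth signals to the cell cycle, was at 2.95, 1.19, 1.18, 2.39 and 2.49 in ethanol livers, against 2.22, 2.13, 2.31, 1.99 and 2.27 in control livers. Ethanol replicates 2 and 3 lay below and ethanol replicates 1, 4 and 5 above all control mice, with SDs of 0.81 in ethanol and 0.13 in control livers and a log2 fold change of -0.15 ± 0.33 (SE, adjusted p = 0.867). Ccne1 (cyclin E1) was at 0.23, -0.95, -1.60, -0.62 and -0.39 in ethanol livers, against -0.81, -0.65, 0.07, -0.92 and -0.50 in control livers, with a log2 fold change of -0.10 ± 0.31 (SE, adjusted p = 0.906). Ccne2 was above background on 0 of the 10 arrays and was not tested. Cdkn1a, which encodes p21, was at -0.14, -2.47, -1.56, -0.79 and -0.08 in ethanol livers, against 0.96, -0.14, -1.04, 0.75 and -0.06 in control livers. Ethanol replicates 2 and 3 were the lowest and control replicates 1 and 4 the highest, and the log2 fold change was -1.10 ± 0.51 (SE, adjusted p = 0.379), or 0.466-fold, with a 95% interval of -2.24 to 0.03. It was -0.19 with the slide column as a linear covariate and -0.43 without column 1, but 0.35 with the column as a factor, 0.07 within column 2 and 0.57 within column 3. Cdkn1b, which encodes p27, was at 1.33, 1.24, 1.33, 1.21 and 1.38 in ethanol livers, against 1.28, 1.44, 1.28, 1.43 and 1.26 in control livers. Its values lay within a narrow band in both groups, and its log2 fold change was -0.04 ± 0.07 (SE, adjusted p = 0.804), with a 95% interval of -0.20 to 0.11. The median of these 4 genes, -0.13, lay between 0.08 and 0.17 over the 5 settings that take the slide column into account, which are the linear covariate, the factor, the fit without column 1, and columns 2 and 3 alone. Of these settings, the factor rests on the same arrays as columns 2 and 3 alone.

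The promoter of Cdkn1a is printed as a contrast with those above, from chr17:29090729-29090978 on the plus strand of GRCm38.p6, the 250 bases before the start of 1 of its 2 promoter entries.
Cdkn1a: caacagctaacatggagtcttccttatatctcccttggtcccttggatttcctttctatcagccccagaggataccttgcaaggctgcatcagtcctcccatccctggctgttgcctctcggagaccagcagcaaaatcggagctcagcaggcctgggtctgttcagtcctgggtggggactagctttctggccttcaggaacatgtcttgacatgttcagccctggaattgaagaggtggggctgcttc
It held none of the CHR, CCAAT and E2F words in this window. Of the 3 genes of this class with an entry, 2 held a CHR match, 1 a CCAAT match and 0 an E2F match. The shares of all promoters were 27.6%, 37.4% and 9.57%, and 3 genes are too few to compare with them.

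Other genes of the same pathways were read from lists of textbook members. Of all genes, 43.2% lay below 0. At an unadjusted p under 0.05 in limma, 5.22% of all genes lay below 0 and 8.11% above. Of 54 other mitosis genes 40 were tested, 32 below 0 and 8 above, with a median log2 fold change of -0.36. In limma 0 passed an adjusted p of 0.05, and 4 lay below 0 at an unadjusted p under 0.05. Those with the smallest p were Aspm, a spindle pole protein, at -0.88 ± 0.37 (SE, adjusted p = 0.346) on a probe above background on 3 of 5 ethanol arrays, Kif22, a chromosome-bound kinesin, at -0.30 ± 0.13 (SE, adjusted p = 0.355), and Anln, a cytokinesis scaffold, at -0.54 ± 0.23 (SE, adjusted p = 0.361). Aspm was tested because of the control arrays. So was Iqgap3, with ethanol replicates 2 and 3 at -6.38, the lowest value a probe could take. Genes that pass the filter only through the control arrays lie below 0 more readily. The counts and medians of these 40 genes were not made without such genes. The mean deviations of the 40 genes were 0.52, -0.63, -0.70, -0.41 and 0.35 in ethanol livers, against 0.50, 0.09, -0.15, 0.25 and 0.18 in control livers, again with ethanol replicates 2, 3 and 4 the lowest. Their median was 0.09 with 16 of 40 below 0 with the slide column as a linear covariate, 0.25 with 5 below 0 with it as a factor, and -0.03 with 21 below 0 without the arrays of column 1. Within column 2 it was 0.28 and within column 3 it was 0.20. Of 54 other DNA replication genes 47 were tested, 20 below 0 and 27 above, with a median of 0.02, 0 past the threshold and 1 at an unadjusted p under 0.05. Those with the smallest p were Lig1, the DNA ligase of replication, at 0.22 ± 0.07 (SE, adjusted p = 0.292), Orc2, a subunit of the origin recognition complex, at -0.20 ± 0.10 (SE, adjusted p = 0.415), and Ung, which removes uracil from DNA, at 0.52 ± 0.27 (SE, adjusted p = 0.416). The median of the 47 lay between 0.06 and 0.14 over the same 5 column settings. The ethanol SD was at least 3 times the control SD for 13 of these 47 and for 8 of the 40 mitosis genes, beside 5.71% of all genes.

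Regulators that act upstream of these genes were read next, beside the same shares of all genes, 43.2% below 0 at any size. At an unadjusted p under 0.05 in limma these shares were 5.22% below 0 and 8.11% above. Of 19 genes of the E2F, RB and DREAM-MuvB system 12 lay above 0 and 7 below, with a median of 0.03, and 0 passed in limma, with 2 at an unadjusted p under 0.05. E2f7, a repressor of the family, was at 0.39 ± 0.15 (SE, adjusted p = 0.325), Mybl2 (B-MYB) at 0.25 ± 0.10 (SE, adjusted p = 0.350) and the activator E2f3 at -0.24 ± 0.13 (SE, adjusted p = 0.424). Of 28 other cyclins, kinases and inhibitors 27 were tested, 15 below 0 and 12 above, with a median of -0.08, and 0 passed, with 4 below 0 and 1 above at an unadjusted p under 0.05. Chek2, a DNA damage kinase, was at -0.83 ± 0.22 (SE, adjusted p = 0.212), Cdkn1c (p57) at -0.50 ± 0.15 (SE, adjusted p = 0.249) and Cdk6 at 0.42 ± 0.13 (SE, adjusted p = 0.254). For Chek2, whose probe was above background on 2 of 5 ethanol arrays, and for Cdkn1c every ethanol mouse lay below every control mouse. These were 2 of the 27 without overlap, beside 3.05% of all genes, and Chek2 was tested because of the control arrays. Over the 5 column settings Chek2 lay between -1.10 and -0.27, Cdkn1c between -0.38 and -0.09 and Cdk6 between 0.44 and 0.80. Over the same settings E2f3 lay between -0.58 and -0.37, E2f7 between 0.11 and 0.44 and Mybl2 between -0.07 and 0.34. E2f3 and Cdk6 thus lay further from 0 in each of them than without the column. With the column as a factor their adjusted p in limma was 0.253 for E2f3 and 0.299 for Cdk6. The median over these settings lay between -0.05 and 0.04 for the E2F, RB and DREAM-MuvB genes. For the cyclins, kinases and inhibitors it lay between -0.0026 and 0.16.

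Because p21 is a target of p53, other p53 targets were read beside it. Of 20, 16 lay below 0 and 4 above, with a median of -0.26, beside 43.2% of all genes below 0. In limma 0 passed the threshold, and 5 lay below 0 at an unadjusted p under 0.05, beside 5.22% of all genes. Eda2r, a receptor of the TNF family, was at -3.65, -4.95, -5.34, -3.91 and -3.72 in ethanol livers, against -2.60, -2.96, -2.98, -2.57 and -3.22 in control livers, on a probe above background on 3 of 5 ethanol arrays, with all ethanol mice below all control mice and a log2 fold change of -1.45 ± 0.33 (SE, adjusted p = 0.178). Zmat3, a zinc finger RNA-binding protein, was at -0.81, -0.74, -1.13, -0.48 and -0.70 in ethanol livers, against -0.03, -0.29, -0.43, -0.07 and -0.38 in control livers, likewise with no overlap, and gave -0.53 ± 0.13 (SE, adjusted p = 0.189). These were 2 of the 20 without overlap, beside 3.05% of all genes, and Eda2r was tested because of the control arrays. Aen, an exonuclease, gave -0.43 ± 0.13 (SE, adjusted p = 0.254). Over the 5 column settings the median of the p53 targets lay between -0.10 and 0.03 with 9 to 15 of 20 below 0, Eda2r lay between -0.89 and -0.75, and Zmat3 between -0.42 and -0.21. Of 24 genes of hepatocyte growth signalling and regeneration 21 were tested, 16 below 0, with 0 past the threshold, 0 at an unadjusted p under 0.05 and the smallest p at Egf, -0.29 ± 0.18 (SE, adjusted p = 0.483), Socs3, -0.67 ± 0.46 (SE, adjusted p = 0.519), and Met, 0.17 ± 0.12 (SE, adjusted p = 0.535). Their median of -0.14 lay between -0.14 and 0.05 over the column settings.

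Markers of the liver's other cells were read in the same mice, since any of them can divide. Their counts below 0 stand beside 43.2% of all genes. For 10 markers of lipid-associated macrophages the mean deviation was 0.92, -1.52, -0.76, -1.003 and 0.91 in ethanol replicates 1 to 5, against 1.05, -0.32, -0.19, 0.23 and 0.68 in control replicates 1 to 5. Ethanol replicates 2, 3 and 4 were thus the lowest mice here as for mitosis, and control replicate 1 the highest. Of these 10 markers 7 lay below 0, and their summed signal relative to the 75th percentile ran from 57.4 to 184 in ethanol livers, against 79.4 to 137 in control livers. For 12 markers of stellate cells and fibroblasts 11 lay below 0, with sums of 60.4 to 95.3 in ethanol livers, against 96.2 to 127 in control livers, and mean deviations of 0.01, -0.75, -0.42, -0.42 and 0.11 in ethanol replicates 1 to 5, against 0.54, 0.03, 0.07, 0.32 and 0.50 in control replicates 1 to 5. For 16 macrophage and Kupffer cell markers 11 lay below 0, with sums of 80.0 to 157 in ethanol livers, against 88.7 to 154 in control livers. Their mean deviations were 0.47, -0.68, -0.16, -0.20 and 0.07 in ethanol replicates 1 to 5, against 0.17, -0.37, -0.02, 0.15 and 0.56 in control replicates 1 to 5. Control replicate 2 thus lay below ethanol replicates 3 and 4 here. Hepatocyte markers lay below 0 for 5 of 12, with sums of 4263 to 4716 in ethanol livers, against 3857 to 5255 in control livers. Their mean deviations were -0.39, 0.28, 0.22, 0.16 and -0.06 in ethanol replicates 1 to 5, against -0.33, 0.13, 0.08, -0.11 and 0.02 in control replicates 1 to 5, so that ethanol replicates 2, 3 and 4 were the highest mice and ethanol replicate 1 and control replicate 1 the lowest. For 7 tested cholangiocyte markers 6 lay below 0, with mean deviations of 0.07, -0.47, -0.38, -0.39 and 0.35 in ethanol replicates 1 to 5, against 0.51, -0.02, -0.13, 0.52 and -0.05 in control replicates 1 to 5. Ethanol replicates 2, 3 and 4 were the lowest mice for the stellate cell and cholangiocyte markers too. Over all 10 arrays the median log2 fold change was -0.51 for lipid-associated macrophages and -0.05 for macrophages and Kupffer cells. It was -0.35 for stellate cells, -0.26 for cholangiocytes and 0.04 for hepatocytes. In that order it was 0.13, 0.27, -0.25, -0.06 and -0.23 with the slide column as a linear covariate. With the column as a factor it was 0.48, 0.31, -0.09, 0.15 and -0.27, and without column 1 it was -0.16, 0.09, -0.28, -0.23 and -0.15. Within slide column 2 the median log2 fold change was 0.98 for lipid-associated macrophages, 0.48 for macrophages and Kupffer cells, 0.13 for stellate cells, 0.31 for cholangiocytes and -0.38 for hepatocytes. Within column 3 it was 0.19 for lipid-associated macrophages, 0.24 for macrophages and Kupffer cells, -0.13 for stellate cells, -0.01 for cholangiocytes and -0.16 for hepatocytes. Of the stellate cell markers 7 of 12 lay below 0 at an unadjusted p under 0.05 in limma, beside 5.22% of all genes. In 3 of the 12 every ethanol mouse lay below every control mouse, beside 3.05% of all genes without overlap. None of the 12 passed an adjusted p of 0.05. Without the arrays of slide column 1, 12 of 12 lay below 0. Every marker of the macrophage, stellate cell and hepatocyte lists was above background on some array. The part of these cells in the values of the mitosis genes was not tested.

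Of the remaining lists, 7 of 11 tested T and NK cell markers, 5 of 8 B and plasma cell markers, 5 of 7 neutrophil markers, 2 of 6 erythroid precursor markers and 9 of 12 endothelial markers lay below 0, beside 43.2% of all genes. In none of them were ethanol replicates 2, 3 and 4 together the lowest mice. The mean deviation of ethanol replicate 4 was 0.19 for T and NK cells, 0.0095 for B and plasma cells and -0.04 for endothelial cells. That of ethanol replicate 3 was 0.10 for neutrophils and 0.19 for erythroid precursors. Defining markers that were above background on no array included Ncr1 for NK cells, Ngp for neutrophils, and Gata1 and Rhag for erythroid precursors. No probe used here carried the names Trac, Ly6g or Ahsp.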

How the data were processed

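Liver RNA of 10 mice, 5 per group, was read on 10 arrays of 1 colour. The authors deposited a scanner table per array with spot intensities on a linear scale, made with Agilent Feature Extraction 10.7.3.1 per the file headers, from a design on mm9. They also deposited a table of log2 values, which correlated at r = 0.995 with the scaled values. Its making and centring are not given in the sources used, and its column medians were 0.02, -0.0037, -0.01, -0.0020 and 0.05 for ethanol replicates 1 to 5 and -0.12, 0.08, 0.02, -0.07 and -0.07 for control replicates 1 to 5.

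Control spots and 872 outlier spots were dropped. The processed intensity was scaled to the 75th percentile of its array, floored at 4 signal units and put on the log2 scale, with the mean taken over spots of a probe. Probes were kept if well above background on at least 4 of 5 arrays of a group. Probes took names through their accession from RefSeq for GRCm38.p6, which named 32994 of 56605 probes, and the brightest kept probe stood for its gene. Promoters came from RefSeq for GRCm38.p6, for 29 of 36 genes. Groups were compared with limma 3.58.1 (lmFit and eBayes) in R 4.3.3, with Benjamini-Hochberg adjustment over 15089 genes, and the procedure was tested on simulated data. The arrays' number limits the precision.

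The genes, classes, lists and tests were chosen with earlier results of these data known. All 36 genes are accounted for, each tested gene is printed for every mouse, and from each pathway list the 3 genes of smallest p are named. Other settings tried were quantile normalization, normexp, a lower floor, other filters, another probe rule, the authors' values, slide, slide column, a replicate block and leaving out arrays.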

Additional observations from a re-analysis of the deposited data

Results flagged for a closer look

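In 3 groups a value lay far from the rest of its group by Dixon's criterion, where the gap to the nearest mouse divided by the group's range exceeded the 95% critical value for 5 mice. These are 3 of 62 groups tested, and chance flags about 1 in 20. Nusap1, the spindle-associated protein, was at -4.74 in control replicate 3, below the -3.50 to -3.09 of the other control mice. Mcm7, of the replicative helicase, was at 1.09 in control replicate 5, below the 1.27 to 1.29 of the others. Rrm2, of ribonucleotide reductase, was at 0.13 in control replicate 3, below the 0.25 to 0.29 of the others. In the ethanol group no gene met the criterion, ethanol replicate 1 and the Mcm genes included.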

How the results depend on the processing

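No cell cycle gene passed an adjusted p of 0.05 in limma under any alternative that gave a test. Of all genes, 3 passed, against 8 with normexp, 6 with no filter on dim probes and 12 with the slide as a random block. The random block had an estimated correlation within slides of -0.13, below 0, which narrows the SEs. The count was 4 with the slide column as a factor and 2 without the arrays of slide column 1. It was 0 with the slide as a fixed block, with the linear slide column and with the replicate block, and 0 to 7 on leaving out each array. Of the 31 genes 23 lay below 0, against 15 with the linear column, 3 with the column as a factor, 5 within column 2 and 4 within column 3. The factor takes its fold changes from columns 2 and 3 alone. The mitosis median of -0.73 was 0.36 with the column as a factor, 0.30 within column 2 and 0.37 within column 3, and -0.32 with normexp. Replicate numbers only name mice, and deviations of same-numbered mice correlated at 0.32, 0.15, 0.31, 0.06 and -0.11. The replicate block cannot move a fold change here, since each number holds 1 mouse of each group. It left the medians at -0.73 for mitosis and 0.09 for S phase. With it 13 of the 31 genes had an unadjusted p under 0.05 in limma, against 5. The share of all genes under 0.05 with this block was not counted, so the 13 cannot be set beside it. For 8 S phase genes the ethanol SD was at least 3 times the control SD. This count was 5 to 8 on leaving out each array, with 5 without ethanol replicate 1. It was 3 without ethanol replicate 1 and the arrays of slide column 1, where the ethanol SDs rest on ethanol replicates 4 and 5 alone. These spread alternatives, and the column settings for lists, were chosen after seeing the data. For single genes the log2 fold change turned over 0 for 20 of 31 within column 2 and for 19 within column 3, among them Cdk1 at 0.11 in column 3, and otherwise as follows. With normexp on median spot signals it was 0.054 for Mcm2 and 0.015 for Rrm1. With the median of a gene's probes it was -0.21 for Ccnb1. With the slide as a fixed block it was -0.26 for Ccnb1, 0.019 for Ccnd1 and 0.024 for Ccne1. With the slide as a random block it was 0.0084 for Rrm1. Within slide 1 it was -0.42 for Ccnb1, -0.10 for Mcm4, -0.32 for Mcm5, -0.012 for Mcm7, -0.081 for Pcna, 0.26 for Ccnd1 and 0.084 for Ccne1. Within slide 3 it was -0.13 for Ccnb1, 0.025 for Top2a and 0.22 for Mcm6. With the slide column as a linear covariate it was 0.060 for Ccna2, -0.11 for Ccnb1, 0.15 for Aurka, 0.057 for Prc1, 0.28 for Top2a, 0.59 for Mcm2, 0.50 for Mcm6, 0.21 for Rrm1, 0.43 for Ccnd1 and 0.23 for Ccne1. With the slide column as a factor it was 0.42 for Ccna2, 0.027 for Ccnb2, 0.64 for Plk1, 0.36 for Aurka, 0.19 for Foxm1, 0.093 for Birc5, 0.15 for Cdca8, 0.37 for Cdc20, 0.092 for Cdca3, 0.49 for Kif20a, 0.070 for Cenpe, 0.50 for Prc1, 0.59 for Nusap1, 0.49 for Top2a, 0.39 for Mki67, 0.62 for Mcm2, 0.44 for Mcm6, 0.21 for Rrm1, 0.35 for Ccnd1 and 0.35 for Cdkn1a, and among list genes 0.018 for Aspm, 0.14 for Anln, -0.22 for Ung and -0.086 for Met. Without the arrays of slide column 1 it was 0.052 for Aurka, 0.10 for Top2a, 0.58 for Mcm2, 0.39 for Mcm6, 0.24 for Rrm1, 0.42 for Ccnd1 and 0.30 for Ccne1. Leaving out each array in turn gave ranges of -0.34 to 0.26 for Mcm2, -0.33 to 0.13 for Ccne1, -0.11 to 0.40 for Mcm3, -0.19 to 0.24 for Mcm4, -0.26 to 0.40 for Mcm5, -0.014 to 0.21 for Mcm7, -0.47 to 0.13 for Mcm6, -0.22 to 0.080 for Rrm1 and -0.37 to 0.069 for Ccnd1, with the lowest value of each on leaving out ethanol replicate 1. Quantile normalization and the authors' deposited log2 values turned no gene over 0, and the floor of 1 and the other filters left the values of the genes as they were. The cause of these changes was not tested. Signal over background limits Cdk1, Foxm1 and Nusap1, which were above background on 2 of 5 ethanol arrays. With normexp their log2 fold changes were -0.20, -0.25 and -0.10.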
